A study of Mus musculus with 6 samples.

Results

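The α2,6-sialyltransferases are the enzymes that attach sialic acid through an α2,6 bond, either to galactose (St6gal1) or to N-acetylgalactosamine (the St6galnac family). The 7 mouse genes St6gal1 and St6galnac1 to St6galnac6 were picked by family name among 909 genes named on an Affymetrix array. Each of the 7 had 1 probe set, the unit of measurement on the array, which was matched through the RefSeq accession in its own name. RNA came from MLE-15, a mouse lung epithelial line derived from a lung tumour of mice that express the SV40 large T antigen under a surfactant protein C promoter. The 6 arrays were 3 of cells stimulated with the phorbol ester PMA, an activator of protein kinase C, and 3 of unstimulated control cells, and in each group they carry the replicate numbers 1, 2 and 3. The series design text gives the stimulation as 10 nM for 24 h and asks whether sialyltransferases are present and induced. All arrays are of 1 immortalised line, and the labels name no separate cultures behind the replicates. The p-values below therefore cover the spread among these arrays, part of which may be technical.

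Sialic acid caps the outer ends of glycans, and the bond by which it is attached decides which lectins and viruses can bind. St6gal1 sialylates the galactose of N-glycan antennae, and its product is the ligand of the B cell lectin Cd22 and the receptor form preferred by human influenza viruses. St6galnac1 and St6galnac2 sialylate the first sugar of mucin-type O-glycans, and St6galnac1 makes the sialyl-Tn antigen. St6galnac3 and St6galnac4 add a further sialic acid to O-glycans that already carry an α2,3-linked one, and St6galnac5 and St6galnac6 act mainly on gangliosides, the sialylated glycolipids.

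Levels are given as log2 RMA values, so a difference of 1 unit is a doubling of signal. They were compared only within a probe set, because different probe sets bind with different strength. The table held no background probe sets, so no gene could be called present or absent. The main feature of the data set is that both arrays of replicate number 1 stood apart from the 4 arrays of numbers 2 and 3, in PMA and in control cells alike. In a limma fit that also held a PMA term (Benjamini-Hochberg adjustment over all probe sets), 519 of the 1246 probe sets (41.7%) differed between number 1 and the other numbers, 343 of them higher (27.5%) and 176 lower (14.1%). With the quantile normalization repeated on the deposited table the split was 278 higher and 232 lower. Between number 2 and number 3 limma called 0 probe sets (0%), and 61 (4.9%) had an unadjusted p under 0.05. In both groups the sample names in the titles end in A for number 2 and in B for number 3, while number 1 has no such letter. What the number or this naming stands for is not given in the labels. The contrast was chosen after results of these data were known, which can make its p-values too small. It sets both arrays of number 1 against the 4 of numbers 2 and 3, and the fit counts PMA 1 and control 1 as separate replicates. Its p-values compare these arrays only and do not measure the spread among further numbers.

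Of 13 listed lung epithelial markers 3 were named on the array, and surfactant protein C was not among them. Surfactant protein A (Sftpa1) averaged 3.86 in number 1 and 3.34 in numbers 2 and 3, surfactant protein D (Sftpd) 5.49 and 5.36, and Muc1 5.76 and 5.43. By limma, Sftpa1 and Muc1 were higher in number 1 and Sftpd did not pass. Both Sftpa1 means were under the arrays' lower quartiles, which ran from 4.32 to 4.43. Of 16 leukocyte markers 8 were measured, of which 1, the mannose receptor Mrc1, was lower in number 1 by limma at -2.74 and 0 were higher. Their summed signal on the linear scale ran from 269 to 304 in the number 1 arrays and from 464 to 506 in the others, and without Mrc1 from 244 to 260 and from 248 to 265. Of 10 endothelial and fibroblast markers 6 were measured, with 2 higher and 3 lower in number 1, against 27.5% and 14.1% of all probe sets. Cspg4 (2.90) and Selp (0.39) were higher, while Pecam1 (-1.37), Vcam1 (-1.31) and Sele (-1.13) were lower. The summed signal of the 6 ran from 1221 to 1372 in number 1 and from 1099 to 1583 in the others. Opposite differences offset each other in that sum. No listed marker was called between PMA and control. Most defining markers of these cells, such as Ptprc and Col1a1, had no probe set named here, and the part of other cells in the results below was not tested.

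St6gal1, the N-glycan enzyme, stood at 10.34, 8.46 and 8.10 in PMA arrays 1, 2 and 3, against 10.54, 8.09 and 8.22 in control arrays 1, 2 and 3. The number 1 array was the highest of its group in both conditions, and PMA and control values overlapped. The means were 8.97 ± 1.20 with PMA and 8.95 ± 1.38 in control (SD, n = 3 arrays each), which differed by 0.019 log2 units (SE 0.90). Same-numbered arrays gave PMA differences of -0.20, 0.37 and -0.12, so no direction was shared. Between numbers, the mean of St6gal1 was 10.44 in PMA 1 and control 1 and 8.22 ± 0.17 in the other 4 arrays (SD), a 4.67-fold difference (2.22 log2 units, SE 0.11, limma adjusted p = 7.01e-08). It was 2.06 among PMA arrays and 2.38 among control arrays. Because a bulk measurement averages all cells, fewer expressing cells and less RNA per cell cannot be told apart here or below.

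**Figure D1:**
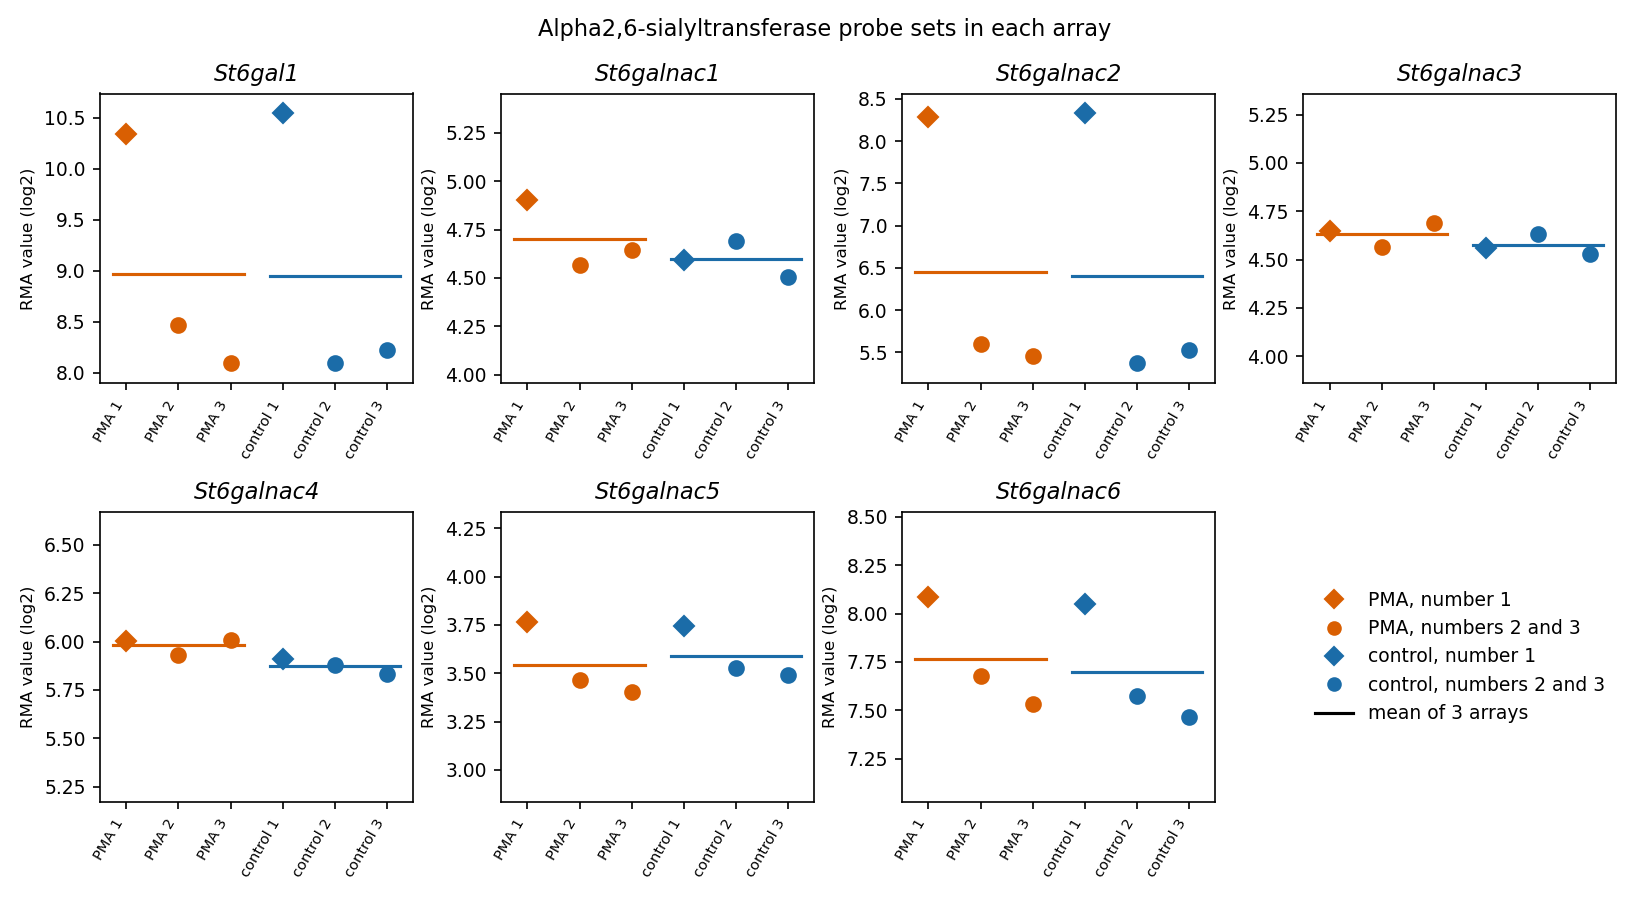
RMA values (log2, y axis) of the 7 α2,6-sialyltransferase probe sets in each of the 3 PMA and 3 control arrays (x axis), with diamonds for number 1, circles for numbers 2 and 3 and horizontal lines for the mean of each group. The panels have different ranges of the y axis. Both diamonds lie above all 4 circles for St6gal1, St6galnac2, St6galnac5 and St6galnac6, while PMA and control points of all genes but St6galnac4 overlap.

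St6gal1 is transcribed from several promoters whose use depends on the tissue. RefSeq places 3 start sites in the mouse gene, and their windows of 250 bases before to 50 after the start are shown because this gene had the second-largest difference of the family and because 1 probe set cannot tell its promoters apart. Capitals mark a GC box, the binding motif of Sp-family factors (GGGCGG, either strand). The coordinates are of GRCm38.p6, the build of the RefSeq table. The build of the array design is not given in the sources used here.
St6gal1, chr16:23224490-23224789, plus strand: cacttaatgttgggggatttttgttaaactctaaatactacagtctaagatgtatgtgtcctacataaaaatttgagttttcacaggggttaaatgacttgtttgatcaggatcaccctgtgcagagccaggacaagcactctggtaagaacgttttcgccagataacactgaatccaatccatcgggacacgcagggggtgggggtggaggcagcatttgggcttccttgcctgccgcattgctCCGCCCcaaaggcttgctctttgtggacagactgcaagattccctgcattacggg
St6gal1, chr16:23225771-23226070, plus strand: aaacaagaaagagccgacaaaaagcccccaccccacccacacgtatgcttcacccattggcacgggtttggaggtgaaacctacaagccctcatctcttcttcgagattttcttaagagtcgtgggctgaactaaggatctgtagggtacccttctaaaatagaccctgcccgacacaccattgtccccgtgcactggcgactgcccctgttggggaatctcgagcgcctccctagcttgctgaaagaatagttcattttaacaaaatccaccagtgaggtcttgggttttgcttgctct
St6gal1, chr16:23290220-23290519, plus strand: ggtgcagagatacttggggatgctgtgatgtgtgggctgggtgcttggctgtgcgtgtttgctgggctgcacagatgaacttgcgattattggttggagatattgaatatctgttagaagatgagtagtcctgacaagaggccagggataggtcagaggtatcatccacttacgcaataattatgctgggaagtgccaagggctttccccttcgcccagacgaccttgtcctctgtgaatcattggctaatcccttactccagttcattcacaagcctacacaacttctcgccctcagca
The first window held 1 GC box and the other two held none, where 35.66% of 32851 mouse promoter windows of the same length held at least 1. The AP-1 site, the phorbol ester response motif (TGAGTCA, either strand), was found in 5.2% of all windows and in 0 of these 3. The cAMP response element (TGACGTCA, which reads the same on both strands) was found in 1.79% of all windows and in 0 of these 3. The windows were 48.0%, 50.67% and 49.67% G or C, against a median of 52.67% over all windows.

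Of the O-glycan enzymes, St6galnac2 had the largest difference between numbers in the family. It stood at 8.29, 5.60 and 5.46 in PMA arrays 1, 2 and 3, against 8.33, 5.37 and 5.52 in control arrays 1, 2 and 3. Both number 1 arrays lay at least 2.70 units above every other array, and the 4 others lay within 5.37 to 5.60. Number 1 averaged 8.31 and numbers 2 and 3 averaged 5.49 ± 0.097 (SD, 4 arrays), a 7.07-fold difference (2.82 log2 units, SE 0.078, limma adjusted p = 1.35e-09). Among the 1246 probe sets this was the 5th largest rise, and that of St6gal1 the 12th. With PMA the mean was 6.45 ± 1.60, against 6.41 ± 1.67 in control, and the 3 pairs gave -0.036, 0.23 and -0.064.

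St6galnac1, the sialyl-Tn synthase, lies next to St6galnac2 on chromosome 11 and did not share its pattern. It stood at 4.90, 4.56 and 4.65 in PMA arrays 1, 2 and 3, against 4.60, 4.69 and 4.51 in control arrays 1, 2 and 3. PMA 1 was its highest array, while control 1 lay between the other control arrays. Number 1 averaged 4.75 and the others 4.60 ± 0.083, a difference of 0.15 (SE 0.089, limma adjusted p = 0.225), which was 0.30 among PMA arrays and -0.0050 among control arrays. Its pairs gave PMA differences of 0.31, -0.13 and 0.14.

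St6galnac3, the other enzyme of disialylated O-glycans beside St6galnac4, did not pass between the numbers. Its values were 4.65, 4.57 and 4.69 in PMA arrays 1, 2 and 3, against 4.56, 4.63 and 4.53 in control arrays 1, 2 and 3. The groups overlapped, and number 1 (mean 4.61) lay inside the range of the others (4.53 to 4.69), with a difference of 0.0022 (SE 0.072, limma adjusted p = 0.982) that was negative with each array centred on its median (-0.037) and with quantile normalization repeated (-0.065).

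St6galnac4, which completes the disialylated core 1 O-glycan, was the member whose PMA and control arrays did not overlap. It stood at 6.001, 5.931 and 6.007 in PMA arrays 1, 2 and 3, against 5.912, 5.878 and 5.833 in control arrays 1, 2 and 3. The means were 5.98 ± 0.042 and 5.87 ± 0.040 (SD, n = 3 each), a difference of 0.11 log2 units or 1.08-fold (SE 0.058). Because the groups did not overlap, all 3 pairs had to be positive, at 0.089, 0.052 and 0.17. The difference did not pass the test, with a limma adjusted p = 0.999 (unadjusted p = 0.126). The exact two-sided permutation test over arrays gave p = 0.10, the smallest that 3 arrays against 3 allow, which also follows from the lack of overlap. Over all probe sets, 20 (1.61%) had all PMA arrays above all control arrays and 22 (1.77%) had them below. Its probe set carries the suffix s, so it can bind several transcripts. Between numbers it differed by 0.044 (SE 0.067, limma adjusted p = 0.635), a value that was -0.012 with quantile normalization repeated.

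St6galnac6, a ganglioside enzyme, stood at 8.09, 7.68 and 7.53 in PMA arrays 1, 2 and 3, against 8.05, 7.57 and 7.46 in control arrays 1, 2 and 3. Number 1 was again the highest in both groups, with a mean of 8.07 against 7.56 ± 0.088 in the others, a 1.42-fold difference (0.51 log2 units, SE 0.074, limma adjusted p = 0.000215). The PMA difference was 0.070 (SE 0.22), with pairs at 0.036, 0.10 and 0.069. All 3 pairs were thus positive, as in 130 probe sets (10.4%, with 12.7% negative in all 3), but the groups overlapped.

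St6galnac5, which makes ganglioside GD1α, stood at 3.77, 3.46 and 3.40 in PMA arrays 1, 2 and 3, against 3.75, 3.53 and 3.49 in control arrays 1, 2 and 3. All 6 values were under the lower quartile of each array. Number 1 averaged 3.76 and the others 3.47 ± 0.053, a 1.22-fold difference (0.28 log2 units, SE 0.068, limma adjusted p = 0.00597). Without PMA 1 the difference was 0.24 and missed the threshold (limma adjusted p = 0.0862), as it did within control arrays only (limma adjusted p = 0.0697). St6galnac5 was the member with a lower mean in PMA cells, at 3.54 ± 0.19 against 3.59 ± 0.14 in control, a difference of -0.045 (SE 0.13).

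The 6 St6galnac genes lie as neighbouring pairs in the RefSeq annotation, with no other coding gene between them. They are St6galnac2 and St6galnac1 on chromosome 11, St6galnac6 and St6galnac4 on chromosome 2, and St6galnac5 and St6galnac3 on chromosome 3. In each pair 1 gene, named first here, was higher in number 1 by limma and its neighbour did not pass, where 27.5% of all probe sets were higher. The signals of St6galnac1 and St6galnac3 lay not far above the arrays' lower quartiles, and changes of dim probe sets may be understated. St6galnac5 lay under those quartiles, and its call did not hold without PMA 1, as given above. The first gene minus the second was larger in number 1 than in numbers 2 and 3 by 2.68, 0.46 and 0.28 log2 units for the 3 pairs. Since the calls set the order within a pair, these values are a description with no test, and the share of other gene pairs that differ so was not computed. The promoter windows of the pair on chromosome 2 are shown because these neighbours, read in the same direction, differed in this way. Capitals again mark GC boxes.
St6galnac6, chr2:32599459-32599758, plus strand: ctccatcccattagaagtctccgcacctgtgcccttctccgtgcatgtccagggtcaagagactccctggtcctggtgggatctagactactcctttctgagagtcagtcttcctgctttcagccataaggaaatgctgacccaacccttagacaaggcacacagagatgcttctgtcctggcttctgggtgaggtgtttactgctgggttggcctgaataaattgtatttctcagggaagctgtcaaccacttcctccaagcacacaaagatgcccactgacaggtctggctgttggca
St6galnac4, chr2:32586828-32587127, plus strand: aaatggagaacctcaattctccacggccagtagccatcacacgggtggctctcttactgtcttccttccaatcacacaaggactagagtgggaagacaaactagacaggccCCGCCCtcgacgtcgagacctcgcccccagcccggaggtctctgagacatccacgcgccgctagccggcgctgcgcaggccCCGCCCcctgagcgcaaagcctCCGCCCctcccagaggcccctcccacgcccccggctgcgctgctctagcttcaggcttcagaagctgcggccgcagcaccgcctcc
St6galnac6 held 0 GC boxes and 2 CpG dinucleotides in this window, and St6galnac4 held 3 GC boxes and 23 CpG dinucleotides, against a median of 7 over all windows. Neither held the AP-1 or cAMP motif. RefSeq windows were matched for 4 of the 7 genes, and the fourth, St6galnac3, held 1 GC box and 20 CpG dinucleotides. For St6galnac1, St6galnac2 and St6galnac5 no window was matched.

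In answer to the question of induction, no member passed the test for PMA. After Benjamini-Hochberg adjustment limma called 0 of the 7 genes and 0 of all 1246 probe sets (0%), while 0 members and 4 probe sets (0.321%) had an unadjusted p under 0.05. The limma fit blocked by replicate number also called 0 of each, and 0 members and 42 probe sets (3.37%) then had an unadjusted p under 0.05. By the exact two-sided permutation test over arrays the 7 unadjusted p-values ran from 0.10 to 0.90. The member means were higher with PMA in 6 of 7 genes, against 52.2% of all probe sets, with a median difference of 0.061 log2 units against 0.0033 for all probe sets.

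The block mattered for how closely the PMA difference was bounded. Without it the 95% interval of St6gal1 ran from -2.24 to 2.28 and that of St6galnac2 from -2.81 to 2.89, with SEs of 0.90 and 1.14. With it the intervals were -0.22 to 0.26 for St6gal1, -0.13 to 0.22 for St6galnac2, -0.094 to 0.30 for St6galnac1 and -0.10 to 0.22 for St6galnac3. They were -0.045 to 0.25 for St6galnac4, -0.19 to 0.10 for St6galnac5 and -0.076 to 0.22 for St6galnac6. All 7 thus excluded a doubling or halving of the measured signal in that fit, as did those of all 1246 probe sets (100%). In the unblocked fit 5 of the 7 and 88.6% of probe sets did. The PMA difference in number 1 minus that in numbers 2 and 3 was called for 0 of 7 members by limma and for 1 of 1246 probe sets (0.0803%). Its widest values among members were -0.32 (SE 0.21) for St6gal1 and 0.30 (SE 0.15) for St6galnac1.

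**Figure D2:**
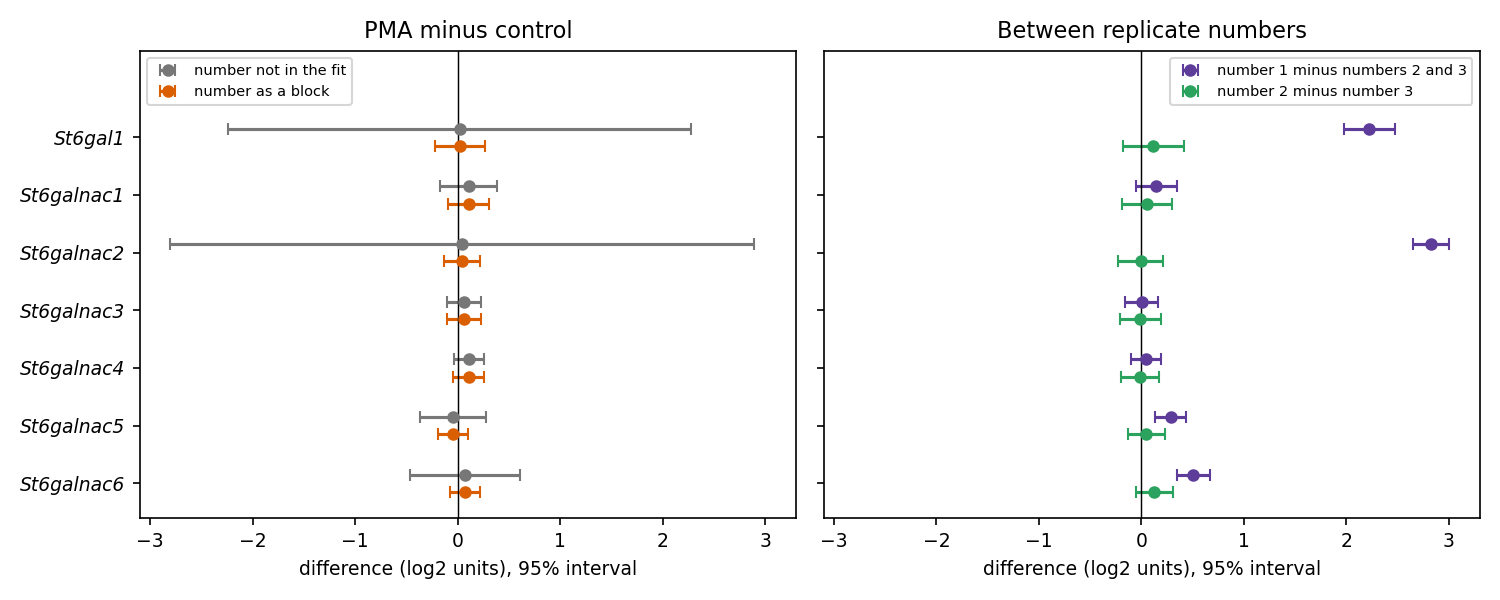
Differences in log2 units (x axis) with 95% intervals from limma for the 7 genes (y axis), on the left for PMA minus control without and with the replicate number as a block, on the right between replicate numbers. All PMA intervals include 0, and number 1 lies clear of 0 for St6gal1, St6galnac2, St6galnac5 and St6galnac6.

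For the numbers, 4 of the 7 members were higher in number 1 by limma and 0 were lower, against 27.5% and 14.1% of all probe sets. The same 4 had both number 1 arrays above all 4 others, as did 37.8% of probe sets, while 18.1% had both below. Differences of at least 1 log2 unit upward that passed were seen in 2 members, St6gal1 and St6galnac2, and in 4.74% of probe sets. The median over the 7 was 0.28 log2 units, against 0.079 over all probe sets. Between number 2 and number 3 the members differed by -0.015 to 0.13 log2 units, and limma called 0 of them, with 0 at an unadjusted p under 0.05. For each of the 4 called genes number 1 was the highest. Numbers 2 and 3 overlapped for St6gal1, St6galnac2 and St6galnac5, while both number 2 arrays of St6galnac6 lay above both number 3 arrays, a difference of 0.13 that did not pass.

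**Figure D3:**
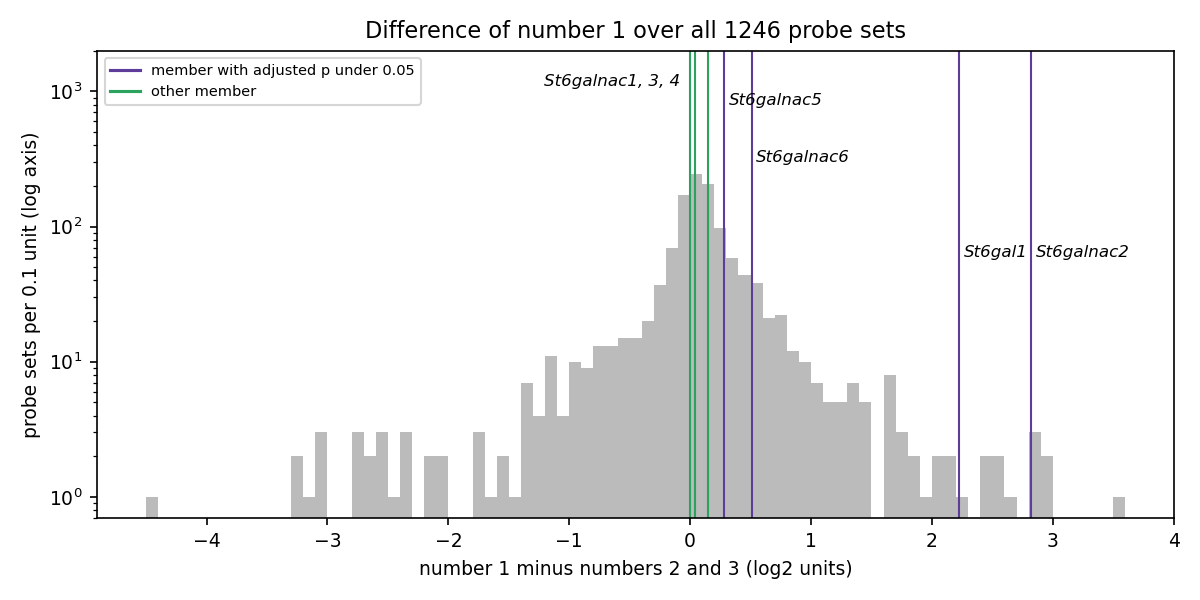
Histogram of the difference between number 1 and numbers 2 and 3 (x axis, log2 units) over all 1246 probe sets, with the count per bin of 0.1 units on a log axis and vertical lines for the 7 α2,6-sialyltransferases. St6gal1 at 2.22 and St6galnac2 at 2.82 lie in the sparse upper tail, and St6galnac1, St6galnac3 and St6galnac4 lie in the peak near 0.

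Around these enzymes, 60 other genes of sialic acid transfer, supply, removal, acceptor synthesis and recognition were measured. By limma 26 of the 60 differed between the numbers, 18 higher and 8 lower in number 1, a share near that of all probe sets (41.7%). With PMA limma called 0 of the 60, both without and with the block, and 1 and 3 of them had an unadjusted p under 0.05 in those fits. The 6 measured α2,3-sialyltransferases cap galactose through the other common bond. In number 1, 4 of them were higher and 0 lower, against 27.5% and 14.1% of all probe sets. The GM3 synthase St3gal5 at 1.79 and St3gal1 at 1.17 led them, and the median of the 6 was 0.56. Of the 6 α2,8-sialyltransferases, which build polysialic acid and disialyl groups, 1 was higher, the polysialyltransferase St8sia2 at 1.85. St8sia6 at 0.16 (limma adjusted p = 0.204) was the next of that list. St6gal2, the other enzyme that sialylates galactose in α2,6 linkage, had no probe set named here.

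In the supply of CMP-sialic acid, the donor used by all members, all 5 measured genes were called between the numbers, 4 higher and 1 lower, against 27.5% and 14.1% of all probe sets. With quantile normalization repeated it was 3 higher and 1 lower. Cmah, which hydroxylates CMP-sialic acid to the glycolyl form, averaged 6.34 in number 1 and 4.30 in numbers 2 and 3, a difference of 2.03 (SE 0.086). Its probe set carries the suffix s. Cmas, which makes CMP-sialic acid, went the other way, at 9.66 in number 1 and 10.71 in the others, a difference of -1.06 (SE 0.077). The first enzyme of the route, Gne, was higher by 0.30 (not called with quantile normalization repeated), Nans by 0.36 and the Golgi transporter Slc35a1 by 0.47. Of the 3 sialidases, which remove sialic acid, the lysosomal Neu1 was lower by limma, at -0.24, and Neu2 stood at 0.21 without passing.

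The acceptors showed both directions, where 27.5% of all probe sets were higher in number 1 and 14.1% lower. The higher counts of the N-glycan and O-glycan lists below lay near the share of higher probe sets. Among 12 enzymes that build N-glycan antennae, the substrate of St6gal1, 4 were higher in number 1 and 0 lower, though with quantile normalization repeated 5 were also lower. B4galt1, the galactosyltransferase that makes the antenna end St6gal1 acts on, led them at 11.12 in number 1 against 9.76 in the others (1.36, SE 0.12), followed by B4galt2 at 0.49. Among 16 enzymes of O-glycan acceptors, 4 were higher and 5 lower (6 lower under either other scaling). They were led by the core 2 and core 4 enzyme Gcnt3 at -1.33 and the N-acetylgalactosaminyltransferase Galnt10 at 1.33. Among 9 enzymes of ganglioside acceptors, 4 were higher and 1 lower, led by St3gal5 and by the lactosylceramide synthase B4galt5 at 1.38. The glucosylceramide synthase Ugcg was lower, at -0.95. The lists overlap, so some calls are counted again. St3gal5 and St3gal2 here, and St3gal1 among the O-glycan enzymes, were also counted with the α2,3-sialyltransferases. Of 8 lectins that read sialic acid, led by the myelin lectin Mag at 0.10 and the macrophage lectin Siglec1 at 0.080, limma called 0 between the numbers, and 0 had an unadjusted p under 0.05 there. The protease Bace1, which releases St6gal1 from the Golgi, had no probe set named here.

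**Figure D4:**
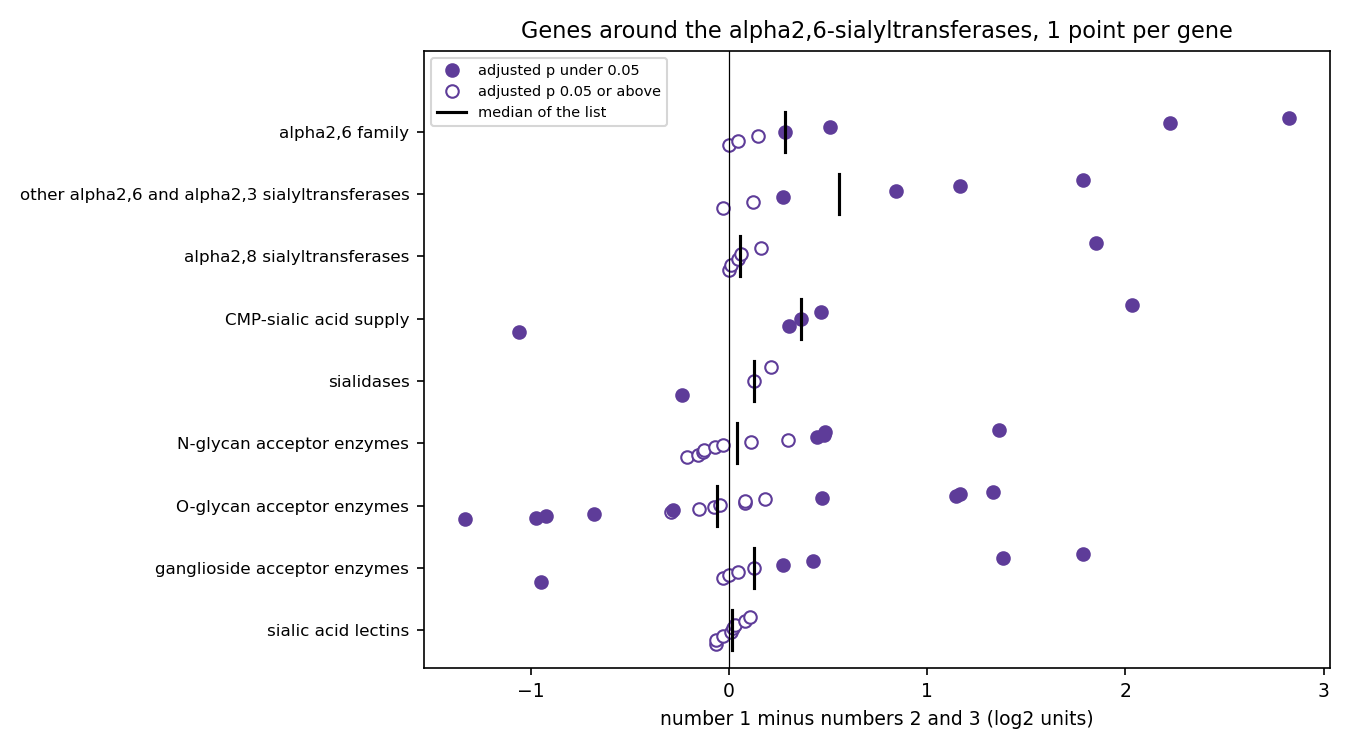
Difference between number 1 and numbers 2 and 3 (x axis, log2 units) for each measured gene of the α2,6 family and of 8 related lists (y axis), with filled points for a limma adjusted p under 0.05, open points for the rest and a bar at the median of each list. All 5 genes of CMP-sialic acid supply are filled, and none of the 8 lectins is.

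Among the 908 other named genes, those whose 6 array values ran closest to St6galnac2, after each gene was centred on its own mean, were Cspg4, a membrane proteoglycan, Wnt10a, a Wnt ligand, and Tgfbr3, the TGF-β co-receptor. Their root-mean-square distances from it were 0.069, 0.071 and 0.16 log2 units. For St6gal1 they were Gdnf, a neurotrophic factor, B3gnt7, which extends keratan sulfate chains, and Ext1, a heparan sulfate polymerase, at 0.12, 0.15 and 0.16. Pearson's r over the 6 arrays was 0.993 to 0.999 for these 6 genes. It rests on number 1 standing apart from the rest, with the arrays sharing that split. Of these 6 genes, Cspg4 is also among the endothelial and fibroblast markers listed above, and the part of other cells was not tested. St6gal1 and St6galnac2 themselves were 0.29 units apart with r of 0.996, and St6galnac3 and St6galnac4, which did not differ by number, were 0.039 units apart.

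**Figure D5:**
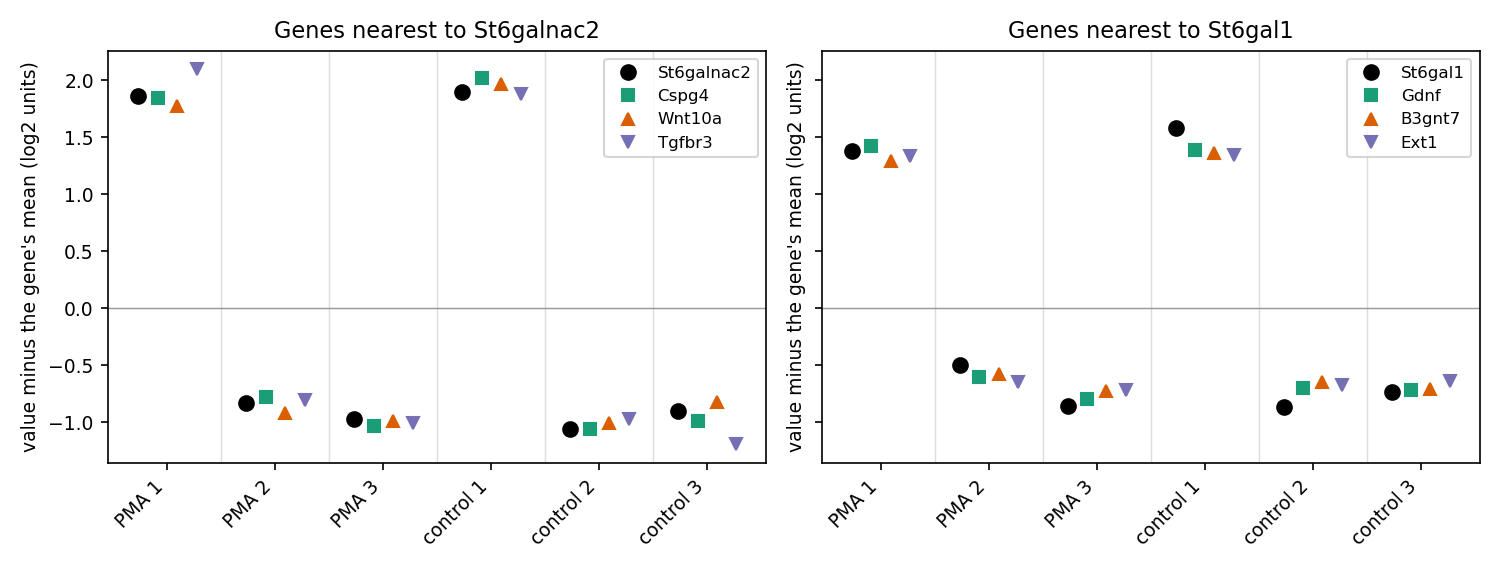
Values in each array (x axis) after subtraction of the gene's own mean over the 6 arrays (y axis, log2 units), for St6galnac2 and its 3 nearest genes on the left and for St6gal1 and its 3 nearest genes on the right. In both panels all genes lie above 0 in PMA 1 and control 1 and below 0 in the other 4 arrays.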

How the data were processed

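The 6 samples were MLE-15 cells, 3 PMA and 3 control, each on 1 array, grouped and numbered by their titles. Per the labels' protocols, total RNA (Trizol extraction, 0.5 µg) was turned into biotin-labelled cRNA. The deposited values are log2 values that the authors made with RMA, per the submitters' processing notes. RMA corrects background, normalizes between arrays and summarises the probes of a probe set, so a shift of all transcripts would not be visible. Not given in the sources used here: its version, the array name and filters. The medians of the arrays lay at 5.64 to 5.71. Precision is limited by having 6 arrays.

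Of the 1246 probe sets, 963 were named through the RefSeq accession in their ID (version ignored, RefSeq genes of GRCm38.p6), covering 909 genes. A gene with more than 1 probe set was represented by its brightest on average, and all 7 members had 1. Values were used as deposited and fitted with limma 3.58.1 in R 4.3.3 (lmFit, eBayes), with Benjamini-Hochberg adjustment over all 1246 probe sets and a threshold of 0.05. The procedure was tested on simulated data. For the PMA fits those data held no split between the numbers, so the unblocked PMA fit was not tested with that feature.

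The comparisons were PMA minus control, number 1 minus numbers 2 and 3 with PMA as a term, the dependence of the first on the second, and number 2 minus number 3. Members, lists and comparisons were chosen with earlier results of these data known. All 7 members are named, with the 2 genes of largest number 1 difference in each list and the 3 genes nearest in pattern to the 2 members that differed most. Other genes are named as examples, chosen after their values were seen. Alternatives covered scaling, a filter on dim probe sets, the prior variance, the replicate block, a permutation test and leaving out arrays.

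The labels number the arrays alike in both groups but do not say what a number marks. The sample names in the titles carry the letter A or B for numbers 2 and 3 and no letter for number 1. Across probe sets, the PMA and control arrays' deviations from their group means had correlations of 0.956, 0.815 and 0.912 within numbers 1, 2 and 3, all over 0.1, so the numbers were taken as pairs, though PMA 2 with control 3 (0.838) and PMA 3 with control 2 (0.886) were about as high and the blocked fit is given beside the unblocked one. With number 1 set aside, PMA 2 minus PMA 3 and control 2 minus control 3 correlated at 0.041. The high correlations thus rest on number 1 standing apart and do not show that arrays within numbers 2 and 3 were pairs.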

Additional observations from a re-analysis of the deposited data

How the results depend on the processing

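The PMA comparison gave 0 called probe sets and 0 called members by limma under every alternative run, replicate block included, so the pairing changed no call. At an unadjusted p under 0.05 the unblocked limma fit had 4 probe sets and the blocked fit 42. With 1 array left out the numbers are unbalanced between the groups, and the PMA difference ran from -0.67 to 0.81 for St6gal1, 0.0065 to 0.17 for St6galnac1 (0.0048 without both number 1 arrays), 0.033 to 0.095 for St6galnac3, -0.88 to 1.00 for St6galnac2, -0.091 to 0.25 for St6galnac6 and -0.16 to 0.033 for St6galnac5. For number 1 against numbers 2 and 3, St6gal1 (2.06 to 2.38) and St6galnac2 (2.69 to 2.88) kept direction and call under every alternative. A minimum of 1 log2 unit left 115 probe sets and 2 members called, without St6galnac6 (0.51) and St6galnac5 (0.28). Within control arrays only, St6galnac5 stood at 0.24 and lost its call, and St6galnac1 (-0.0050) and St6galnac3 (-0.017) turned sign. St6galnac3 also turned sign with arrays centred on their medians (-0.037), and it (-0.065) and St6galnac4 (-0.012) did with quantile normalization repeated. Leaving out 1 array gave 403 to 543 probe sets and 3 to 4 members, with -0.0050 to 0.30 for St6galnac1, -0.027 to 0.027 for St6galnac3 and 0.24 to 0.33 for St6galnac5, which lost its call without PMA 1. The interaction of PMA with number 1 called 1 probe set, against 0 with a prior variance that follows the mean and 2 to 18 without 1 array, and 0 members throughout. St6galnac3 turned sign there with centring (-0.0074) and without 1 array (-0.023 to 0.10), as did St6galnac4 (-0.063 to 0.013) and St6galnac6 (-0.12 to 0.021). Number 2 minus number 3 called 0 probe sets, and 0 to 1 without 1 array, where the range was -0.15 to 0.38 for St6gal1, -0.12 to 0.23 for St6galnac1, -0.15 to 0.13 for St6galnac2, -0.11 to 0.083 for St6galnac3 and -0.067 to 0.037 for St6galnac4. Leave-one-out fits of the last 2 comparisons were added after seeing the data. The causes of these changes were not tested, and the fits without an array or a group also held fewer arrays. The filter on dim probe sets removed St6galnac5, so it gave no value there. Averaging probe sets of a gene was not run, since each member has 1. Signal over background is unknown, so changes of dim probe sets may be understated.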
